A study of Hydra vulgaris with 40 samples.

Results

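The first 2 hours of head regeneration in Hydra vulgaris were examined by comparing the 2 samples taken 2 h after decapitation with the 2 samples taken at 0 h. These are 4 of the 40 RNA-seq samples of the series. A gene entered the comparison if 2 or more of these 4 samples had a value above 0, a rule met by 16598 of the 17438 genes listed. Differences are given on a log2 scale after adding 1 to each value, so that a difference of 1 is close to a doubling for genes well above 1 and understates the change of genes near 0.

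The polyps were fed brine shrimp larvae and starved for at least 1 day before they were cut. Each regeneration sample came from 1 animal, which was cut between the upper regions called R1 and R2 and left for between 0 and 48 h, with 7 times sampled. According to the labels the tissue taken was R2 to R3, and the methods state that the apical end was cut a further time to obtain it. The 0 h samples are thus cut animals as well, placed in lysis buffer within 3 minutes of isolation. No strain, age or treatment other than the cut is given in the labels. The series also holds adult tentacles, hypostome, foot, budding zone and body column, and heads of buds at 8 stages, with 2 samples each. The adult tissues took no part in the 2 h comparison. The later times did not enter the difference between 2 h and 0 h, but they entered the spread by which it was tested.

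Hydra is a freshwater polyp with a head made of a mouth cone, the hypostome, and a ring of tentacles, above a body column and a foot. When the head is removed, epithelial cells close the wound within hours, and a new head organizer and then tentacles form from the tissue of the column without the need for much cell division. Early responses known from Hydra include injury signalling through reactive oxygen species and MAP kinases, death of some cells near the cut and the onset of Wnt signalling. Which of the genes described here belong to those processes was not analysed here, because the files give identifiers that they do not pair with gene names. The genes are therefore described by their levels, their course and the adult tissues in which they were found, and at most 2 identifiers are printed in each direction. Cell type markers were not analysed here for the same reason.

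The values are transcript abundances (TPM) that the authors adjusted further, and the regeneration samples sum to between 997030 and 1001349. Both samples of each regeneration time hold the same set of values in a different order, so that the spread between replicates, and with it every standard error and p-value below, may be too small. The number of reads is unknown, and no counting error could be given. Replicates differed most at 2 h, where the SD of their log2 difference was 0.588 over genes, against 0.454 at 0 h. The rank correlation of the replicates was 0.950 at 2 h and 0.966 at 0 h. Of the 2 h samples, replicate 1 had a mean rank correlation of 0.959 with the 0 h samples and replicate 2 had 0.943.

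Most genes stood at a similar level at 2 h and at 0 h. The median log2 difference over all genes was 0.00, and the quartiles were -0.20 and 0.19. A small group of genes stood far outside this range, most of them on the side of higher values at 2 h. By limma with the spread estimated over all 14 regeneration samples, 44 of the 16598 genes (0.265%) had a Benjamini-Hochberg adjusted p below 0.05. Of these, 35 rose (0.211%) and 9 fell (0.0542%). Before adjustment, 1578 genes (9.51%) had a p below 0.05, with 839 higher and 739 lower. With 2 samples against 2, an exact permutation test of a single gene cannot go below a two-sided p of 0.333, so that the calls rest on the pooled spread. In bulk samples such as these, fewer cells of a type and less RNA per cell cannot be told apart.

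**Figure D1:**
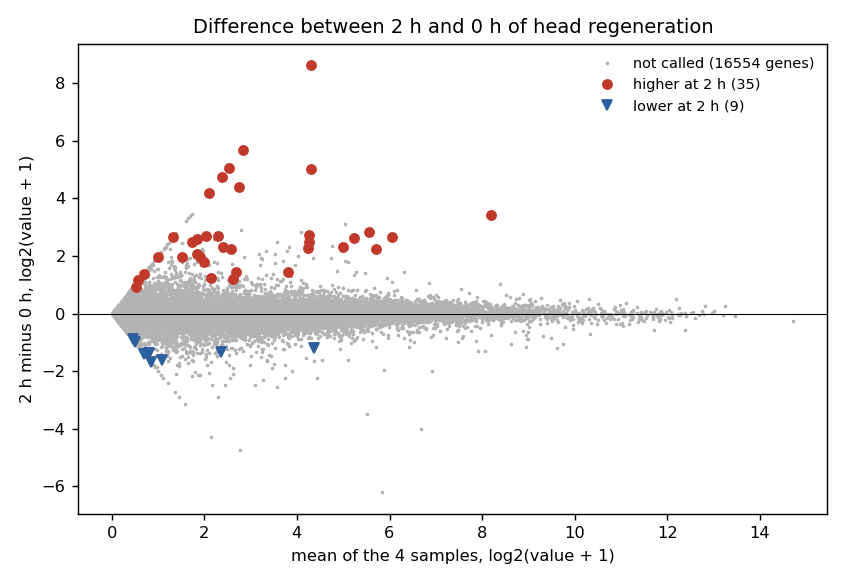
Each point is 1 gene, with the mean of the 0 h and 2 h samples on the x axis and the difference between 2 h and 0 h on the y axis, both as log2(value + 1). The 35 genes that rose lie between 0.93 and 8.62, the 9 that fell lie between -1.69 and -0.87, and several genes with larger falls were not called.

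How many genes were called depended on the samples fitted. Leaving out 0 h replicate 1 gave 18 genes higher and 5 lower, leaving out 0 h replicate 2 gave 15 and 8, and leaving out 2 h replicate 2 gave 19 and 4. Leaving out 2 h replicate 1 gave 104 genes higher and 146 lower, and 33 of the 35 genes were among the 104. Altogether 12 of the 35 were called with all samples and in each of these fits. A fit of the 4 samples alone called 2 genes higher, both among the 35, and 0 lower, with 552 and 500 genes below an unadjusted p of 0.05.

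The genes that rose did so by a median of 2.48 on the log2 scale. The smallest difference was 0.93 and the largest 8.62, and 16 of the 35 genes lay between 2 and 3. Adjusted p-values by limma ran from 2.92e-05 to 0.0456. In all 35 genes both samples at 2 h were above both at 0 h. Of all genes fitted, 263 (1.58%) had no such overlap and were also at least 2-fold higher on this scale. That is a stricter rule, which 34 of the 35 met. The share of all genes without overlap alone was not counted, so the lack of overlap in the 35 is not set against it.

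Many of these genes were close to silent in freshly cut tissue. Of the 35, 9 were listed at 0 in both 0 h samples, 3 in 1 of them, and 23 were above 0 in both. Genes listed at 0 in both 0 h samples could enter only through the 2 h samples, and there were 103 of them among the genes fitted. The 9 genes reached means between 1.23 and 411.7 at 2 h, with a median of 17.6. Because a value of exactly 0 can be a failed estimate, no fold is given for them. For the 23 genes with values above 0, the mean at 2 h was between 2.70 and 42.7 times that at 0 h, with a median of 6.75 times.

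At 2 h the 35 genes covered a wide range of levels. In 6 of them the mean at 2 h was above 100, and in 5 it was below 5. The most abundant stood at 73.55 and 104.67 in the 0 h samples and at 686.70 and 1353.45 in the 2 h samples. Its 2 h samples lay far apart, and both were above both 0 h samples. On the log2 scale it rose by 3.44 (SE 0.44, limma adjusted p = 0.0113).

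Summed over the 35 genes, the 0 h samples held 246.88 and 222.26 and the 2 h samples 2017.72 and 3092.90. This is 0.0247% and 0.0222% of the sample sum at 0 h, and 0.202% and 0.309% at 2 h. The sums rest in large part on a few genes, as the largest single gene held 686.70 and 1353.45 of those at 2 h. The median gene of the group stood at 1.2 and 1.09 at 0 h and at 12.45 and 14.71 at 2 h.

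The largest rise was that of Sc4wPfr_677.g23720. It was listed at 0 in both 0 h samples and stood at 291.29 and 532.10 at 2 h, a mean of 411.7 ± 170.3 (SD, n = 2). At 4 h it stood at 492.66 and 483.90, at 6 h at 185.38 and 227.74, and at 12 h at 178.14 and 288.03. It was then listed at 0 and 17.11 at 24 h and at 0 in both samples at 48 h. The gene was thus high from 2 to 12 h and near or at 0 before and after. The difference at 2 h was 8.62 (SE 0.98, limma adjusted p = 0.00589), a size that depends on the 1 added to each value. The call was lost without 0 h replicate 1, without 0 h replicate 2 and without 2 h replicate 2, with limma adjusted p-values of 0.0577, 0.0626 and 0.0700.

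The second gene named, Sc4wPfr_42.2.g22114, was chosen as the largest rise among genes that were also higher than 0 h at 48 h. It was listed at 0 in both 0 h samples and stood at 46.03 and 55.12 at 2 h, a mean of 50.6 ± 6.43 (SD, n = 2). It stood at 186.76 and 154.55 at 4 h, at 139.22 and 251.20 at 6 h, and at 727.65 and 906.31 at 12 h. At 24 h the samples were at 334.80 and 289.97, and at 48 h at 186.69 and 111.08. Every sample from 2 h on was above 0, which the choice of the gene in part required at 2 and 48 h, and the highest values came at 12 h. The difference at 2 h was 5.68 (SE 0.29, limma adjusted p = 2.92e-05).

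**Figure D2:**
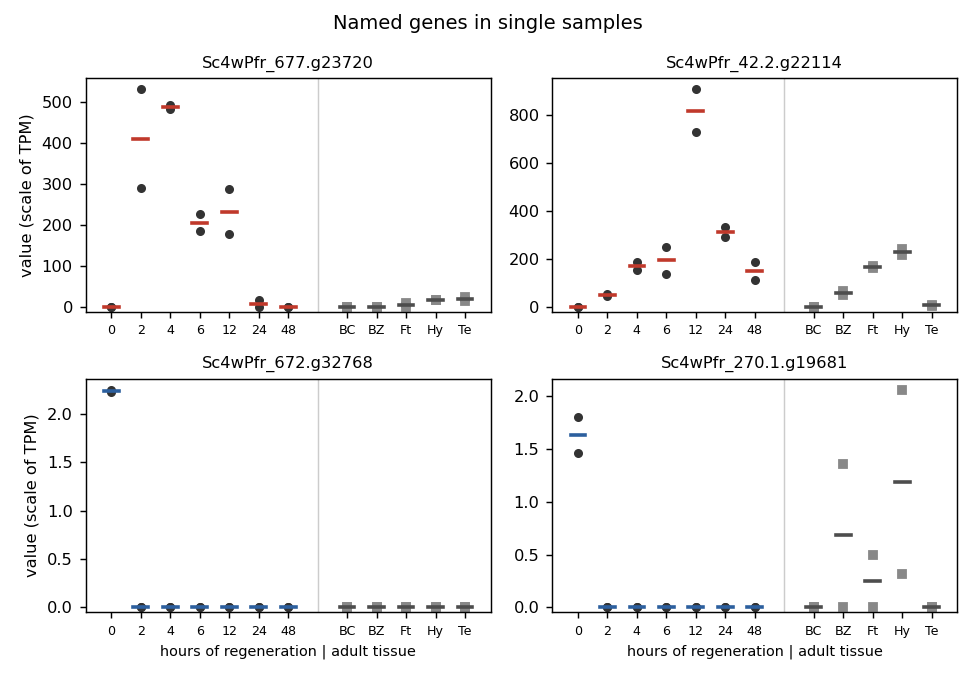
Each panel shows 1 named gene, with hours of regeneration and then adult tissues on the x axis (BC body column, BZ budding zone, Ft foot, Hy hypostome, Te tentacles) and the value on the scale of TPM on the y axis. Points are single samples and bars are means of 2 samples, and the y axes differ. Sc4wPfr_677.g23720 is high from 2 to 12 h, Sc4wPfr_42.2.g22114 is highest at 12 h with 727.65 and 906.31, and the genes that fell are listed at 0 at every time after 0 h.

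The genes that fell were few and mostly of low level. Of the 9, 7 had a mean below 5 at 0 h, and the median of the means was 1.86 with a range from 0.86 to 30.1. The median difference at 2 h was -1.35, from -1.69 to -0.87, and limma adjusted p-values ran from 0.00011 to 0.0485. In all 9 both samples at 2 h were below both at 0 h. Of the genes fitted, 201 (1.21%) met this criterion and were also at least 2-fold lower, a stricter rule that 7 of the 9 met. The share of all genes without overlap alone was not counted here either, so the lack of overlap in the 9 is not set against it.

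Sc4wPfr_672.g32768 had the largest fall that was called. It stood at 2.22 and 2.25 at 0 h, and it was listed at 0 in all 12 later regeneration samples and in all 10 adult tissue samples. The difference at 2 h was -1.69 (SE 0.11, limma adjusted p = 0.00011). Sc4wPfr_270.1.g19681 was chosen as the next largest fall among genes that were also lower than 0 h at 48 h. It stood at 1.46 and 1.80 at 0 h and was likewise listed at 0 in every later regeneration sample. In adult tissue its samples were at 0.32 and 2.06 in the hypostome, at 1.36 and 0 in the budding zone, and at 0 and 0.50 in the foot. Its difference at 2 h was -1.39 (SE 0.11, limma adjusted p = 0.000535). In the fit of the 4 samples alone neither passed the test, with adjusted p-values of 0.188 and 0.227. As both genes were at 0 in all 12 later samples, their SE in the main fit rests largely on the spread shared between genes. With no filter on low values the SE was 0.062 and 0.075. With a value of at least 1 required in at least 2 samples it was 0.175 and 0.181, at the same differences. The SE and p-values of these genes are thus not a measure of their own replicate spread.

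The most abundant of the genes that fell was high again at the last time point. It stood at 31.22 and 29.06 at 0 h and at 12.41 and 12.82 at 2 h, a fall of 1.19 on the log2 scale (SE 0.17, limma adjusted p = 0.0254). At 48 h its samples were at 39.37 and 35.43, above both 0 h samples. Altogether 3 of the 9 genes were listed at 0 at 2 h and in every later regeneration sample. The lowest mean was first reached at 2 h in 7 of the 9 and at 12 h in the others. Those 7 include the 3 genes listed at 0 throughout, whose means were equally low from 2 to 48 h.

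The largest falls in value did not pass the test. There were 6 uncalled genes at least 8-fold lower on the log2(value + 1) scale, with differences from -6.21 to -3.15, standard errors from 1.04 to 2.50 and limma adjusted p-values from 0.166 to 0.595. The first of them stood at 731.46 and 326.87 at 0 h and at 0 and 42.66 at 2 h. Its samples were at 308.62 and 0 at 4 h and at 27.18 and 461.13 at 6 h. In this gene the samples of 1 time point thus lay far apart at 4 and 6 h as well. There were 5 uncalled genes at least 8-fold higher, with differences from 3.11 to 3.47 and limma adjusted p-values from 0.056 to 0.293.

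The question of how long the response lasted was first approached with the levels at later times. These comparisons share the 0 h samples with the 2 h comparison, so that the values are set side by side without a test. The median difference of the 35 genes from 0 h was 2.48 at 2 h, 2.73 at 4 h, 2.05 at 6 h and 2.55 at 12 h. It was 1.42 at 24 h and 0.83 at 48 h. Over all genes fitted, the median stayed between -0.09 and 0.00 at these times. The group thus stood at about its 2 h level until 12 h and nearer to 0 h at 24 and 48 h. For the 9 genes that fell, the median was -1.35 at 2 h, -0.83 at 24 h and -0.74 at 48 h.

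**Figure D3:**
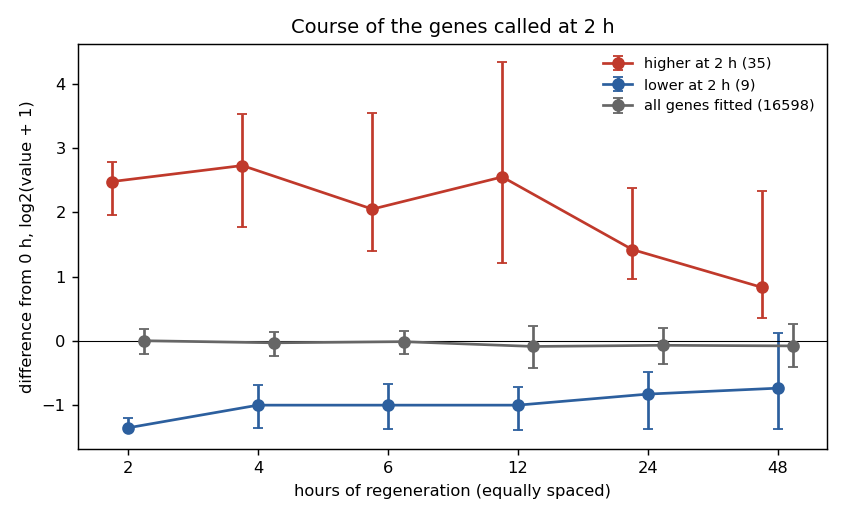
The difference from 0 h on the log2(value + 1) scale is plotted against hours of regeneration, placed at equal distances. Points are medians over genes and bars run from the lower to the upper quartile, for the 35 genes that rose, the 9 that fell and all 16598 genes fitted. The median of the genes that rose is between 2.05 and 2.73 up to 12 h and is 0.83 at 48 h.

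In single samples, the sum over the 35 genes was 3268.14 and 2700.49 at 4 h, 2203.30 and 2671.30 at 6 h, and 3299.46 and 4072.56 at 12 h. It was 1533.32 and 1567.20 at 24 h and 778.80 and 716.60 at 48 h. At 24 h both samples were below every sample from 2 to 12 h, and at 48 h both were below those of 24 h and above those of 0 h. A few genes weigh heavily in these sums, with a largest single value of 1138.77 and 686.89 at 4 h and 758.71 and 906.31 at 12 h. The median gene stood at 5.69 and 5.38 at 48 h, against 1.2 and 1.09 at 0 h.

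The 35 genes did not share 1 course. The highest mean was at 2 h in 10 genes, at 4 h in 10, at 12 h in 13 and at 48 h in 2. The times of the highest mean over all genes were not counted. In the 10 genes highest at 2 h, the median value of the replicates was 1.37 and 1.68 at 0 h and 5.39 and 9.33 at 2 h. It was 5.63 and 5.885 at 4 h, 6.095 and 5.455 at 6 h, 5.03 and 5.71 at 12 h, and 2.91 and 2.95 at 48 h. In replicate 1 the median of this class was thus higher at 4 and 6 h than at 2 h. In the 10 genes highest at 4 h, it was 10.4 and 13.0 at 2 h, 17.8 and 14.6 at 4 h, 4.47 and 6.00 at 24 h, and 4.05 and 4.02 at 48 h. The 13 genes highest at 12 h had the higher medians from 2 h on, with 4.23 and 1.28 at 0 h and 37.6 and 43.7 at 2 h. Their medians reached 97.5 and 118.8 at 12 h and stood at 28.8 and 32.8 at 24 h and at 24.2 and 22.4 at 48 h. The most abundant single genes at 2 h were not among them. Their highest mean at 2 h was 125.1, against 1020.1 in the genes highest at 2 h and 411.7 in those highest at 4 h. The grouping follows from the values themselves and was not tested.

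Between consecutive times the median step of the 35 genes was -0.21 from 4 to 6 h, 0.29 from 6 to 12 h, -0.86 from 12 to 24 h and -0.57 from 24 to 48 h. The step from 12 to 24 h was downward in 30 of the 35 genes. Over all genes fitted, the same median steps were 0.02, -0.06, 0.01 and -0.01.

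A slope over the order of the times 4, 6, 12, 24 and 48 h was fitted to the 10 samples of these times. They did not enter the difference at 2 h but helped to set the spread by which the 35 genes were called, so that the counts are given as a description. By limma, 17 of the 35 genes fell over this period, while 9.49% of all genes fitted did. Of the 35, 0 rose by limma, against 7.2% of all genes, with 1 below an unadjusted p of 0.05, and 31 of the 35 slopes were below 0, with a median of -0.34 per step. Without the 9 genes listed at 0 in both 0 h samples, 12 of the other 26 fell. The count over the 35 was 11 without 4 h replicate 1, 8 without 48 h replicate 1 and 9 without 48 h replicate 2. Sc4wPfr_677.g23720 fell by 2.35 per step (SE 0.36, limma adjusted p = 0.00511). For Sc4wPfr_42.2.g22114 the slope was 0.03 (SE 0.21, adjusted p = 0.951), as its values went up to 12 h and down afterwards. Of the 9 genes that fell at 2 h, 6 could be fitted, and 2 of them rose from 4 to 48 h.

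The adult body column served as a further reference. The 0 h samples are column tissue too, and in them 17 of the 35 genes had a mean below 1, against 20.3% of all genes fitted. The 35 genes were chosen as lower at 0 h than at 2 h. A low level in the body column thus partly restates that choice, and the counts against it are given as a description, in which the share of all genes is not what would be expected of genes chosen in this way. Summed over the 35 genes it held 186.00 and 159.65, below every sample of the time course. At 4 h, 30 of the 35 genes were higher than in the body column by limma, against 11.8% of all genes, and 1 was lower, against 10.2%. At 6 h it was 29 of 35 (14.7% of all genes), at 12 h 28 (10.5%), at 24 h 19 (3.57%) and at 48 h 18 (13.1%). The counts at 6, 12 and 24 h were added after the data had been seen. The 9 genes listed at 0 in both 0 h samples had passed the filter only through the 2 h samples. Among the other 26, a count also added then, 23 were higher than in the body column at 4 h, 24 at 6 h, 22 at 12 h, 17 at 24 h and 16 at 48 h. The median difference of the 35 genes from the body column was 2.63 at 4 h, 2.19 at 6 h, 2.15 at 12 h, 1.11 at 24 h and 0.91 at 48 h. At 48 h 2 of the 35 were lower than in the body column, against 12.1% of all genes.

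These counts depend in part on single samples. At 24 h, 12 of the 35 genes were called without body column replicate 2 and 13 when either 24 h sample was left out, and at 48 h 13 were called without 48 h replicate 1. Over all genes, the number above the body column was 2536 at 6 h, with 1297 without body column replicate 2, 1536 without its replicate 1, and 1404 and 1496 without 6 h replicates 1 and 2. At 12 h it was 1819, with 961 and 1108 without body column replicates 2 and 1. At 24 h it was 618, with 138 and 191 without body column replicates 2 and 1, 161 and 201 without 24 h replicates 1 and 2, and 408 and 406 without 48 h replicates 1 and 2. With the 104 genes found higher at 2 h without 2 h replicate 1, the share above the body column was 60.6% at 4 h, 65.4% at 6 h, 41.3% at 12 h, 25% at 24 h and 32.7% at 48 h. Batches are not named in the labels, so that the time course and the adult tissues could not be compared within a batch, and a batch and the group cannot be told apart.

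**Figure D4:**
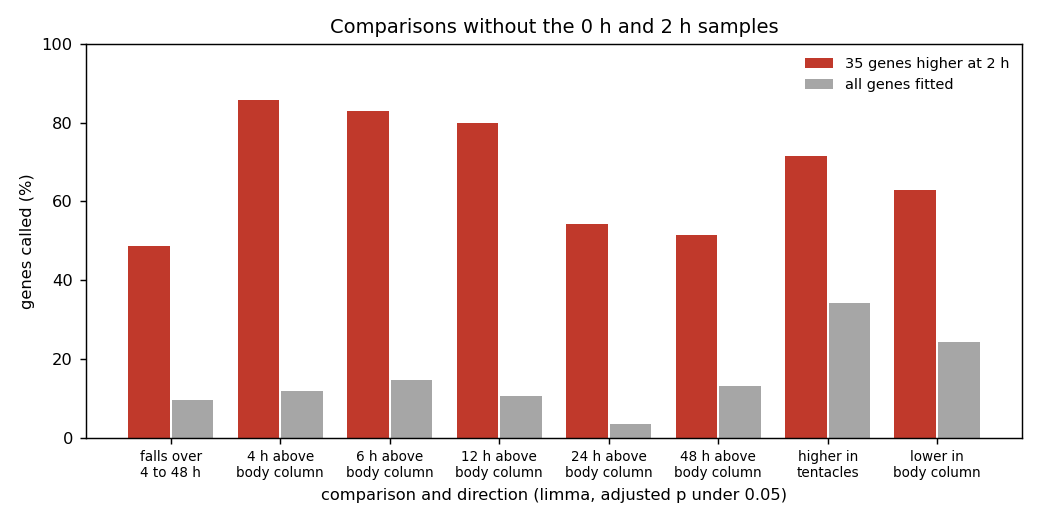
Bars give the percentage of genes called by limma at an adjusted p below 0.05 in comparisons without the 0 h and 2 h samples, for the 35 genes that rose at 2 h and for all genes fitted. The share of the 35 above the body column is 85.7% at 4 h and 51.4% at 48 h, and 71.4% of them are higher in the tentacles. For the body column and the tissues nothing is read from the 35 against all genes, as they were chosen partly by values in column tissue at 0 h.

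In the adult polyp, most of the 35 genes had their highest mean in the tentacles or the hypostome. The tentacles, which carry most of the stinging cells, had the highest mean of the 5 tissues for 25 of the 35 genes (71.4%). Over all genes fitted the share was 38.4%. Nothing is read from that contrast, as the 35 were chosen partly by low values in column tissue at 0 h. The hypostome was highest for 5, the budding zone for 3, and the body column and the foot for 1 each. The median of the means was 20.4 in the tentacles and 7.95 in the hypostome, against 5.31 in the foot, 2.65 in the budding zone and 1.69 in the body column. 

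Against the mean of the 4 other tissues, 25 of the 35 genes were higher in the tentacles by limma, while 34.2% of all genes were. In the hypostome 14 of the 35 were higher, against 17.4%. In the body column 22 of the 35 were lower, against 24.3% of all genes, and in the budding zone 20 were lower, against 20% of all genes. Because the 35 genes were chosen partly by their values in column tissue at 0 h, nothing is read from the tissue counts against those shares. Without the 9 genes listed at 0 in both 0 h samples, 22 of 26 were higher in the tentacles, 11 higher in the hypostome, 18 lower in the body column and 17 lower in the budding zone. Without 1 tissue sample, between 23 and 26 of the 35 were higher in the tentacles and between 16 and 23 lower in the body column, while 7 were higher in the hypostome when either hypostome sample was left out and 9 without tentacles replicate 2. Among the 104 genes found without 2 h replicate 1, 43.3% were higher in the tentacles and 39.4% lower in the body column.

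Some of the 35 genes were not highest in the tentacles. Sc4wPfr_42.2.g22114 stood at 217.12 and 240.36 in the hypostome, at 4.40 and 10.31 in the tentacles, at 161.78 and 170.92 in the foot, and at 50.93 and 66.43 in the budding zone. It was listed at 0 in both body column samples. In the tentacles it was lower than in the other tissues by 2.31 on the log2 scale (SE 0.24, limma adjusted p = 7.1e-05). Sc4wPfr_677.g23720 stood at 23.99 and 14.61 in the tentacles and at 16.37 and 17.25 in the hypostome, far below its 291.29 and 532.10 at 2 h. It was listed at 0 in the body column and the budding zone. By the time of their highest mean, the tentacles were the highest tissue for 6 of the 10 genes highest at 2 h, 7 of the 10 highest at 4 h, 10 of the 13 highest at 12 h and both of the genes highest at 48 h.

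**Figure D5:**
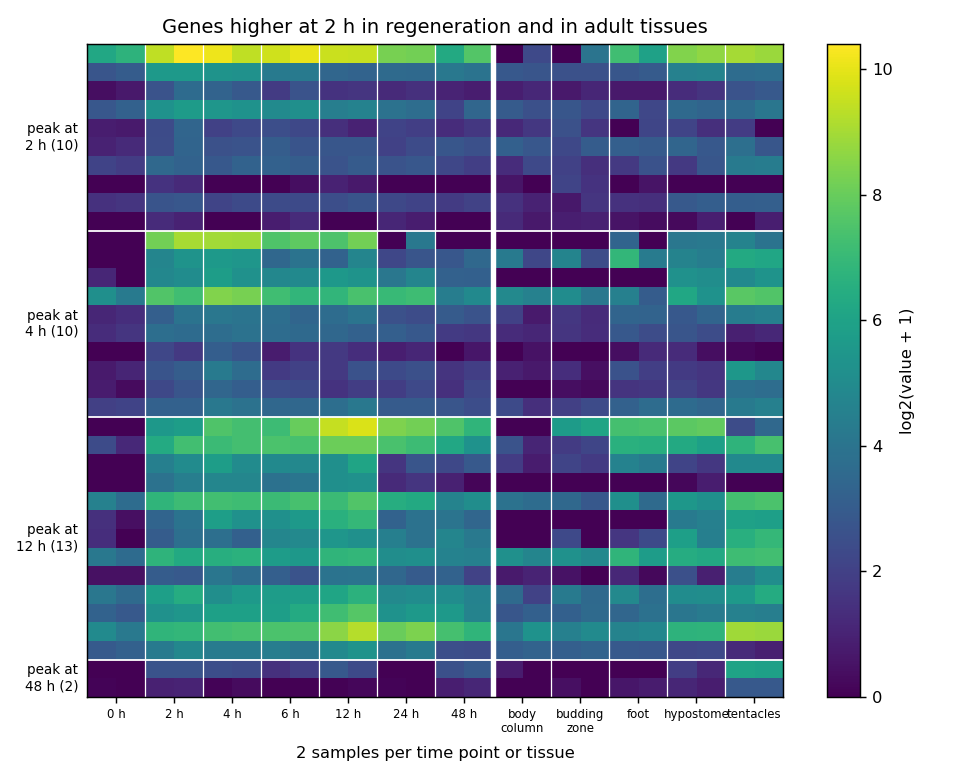
Rows are the 35 genes that rose at 2 h, grouped by the time of their highest mean, and columns are single samples, 2 for each time point and each adult tissue. Colour gives log2(value + 1). Most rows are dark at 0 h and in the body column and brighter from 2 to 12 h, and many are bright in the tentacles.

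Heads of buds, in which a head forms without a wound, were examined as well. A slope over the 8 bud stages was called lower for 1 of the 35 genes (0.304% of all genes) and higher for 0 of them by limma (6.22% of all genes), with 6 below an unadjusted p of 0.05 upward. The bud values could not be used for the level of these genes. In some of them they hardly varied between samples, so that nothing is read from the slope counts about heads that form without a wound. In the 35 genes the mean over the 16 bud samples differed from the mean over the 24 other samples by a median of only -0.07 on the log2(value + 1) scale, with a range from -0.20 to 0.01. Over all genes fitted the median was -0.02, and 1st and 99th percentiles were -0.15 and 0.24. Sc4wPfr_677.g23720, at 0 in both 0 h samples, stood between 94.17 and 109.61 in every bud sample, close to its mean of 115.7 over the other samples. Another of the 35, also at 0 in both 0 h samples, stood between 14.82 and 18.43 in every bud sample. Sc4wPfr_42.2.g22114 varied more, from 84.12 to 253.54.

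The genes that rose lay on 33 scaffolds, and the 9 genes that fell lay on 8. Gene numbers follow each other on a scaffold, and 9569 pairs of consecutive numbers were among the genes fitted. Of these, 41 pairs held at least 1 gene that rose, and in 1 pair both genes rose, by 4.39 and 3.44. The 40 neighbours that were not called had a median difference of -0.03, from -0.82 to 1.83.

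Opsins, light-sensitive receptor proteins and the subject of the study, could be placed in this comparison for the 2 genes whose identifiers matched. HvOpD8 stood at 0.19 and 0.08 at 0 h and at 0.02 and 0.13 at 2 h, and the samples overlapped. Its difference was -0.08 (SE 0.21, limma adjusted p = 0.944). HvOpD9 stood at 0.10 and 0.11 at 0 h and at 0.05 and 0.17 at 2 h, again with overlap. Its difference was 0.00 (SE 0.19, limma adjusted p = 1.00). At 4 h the samples were at 0.47 and 0.03 for HvOpD8 and at 0.64 and 0.06 for HvOpD9, a spread within 1 time point that was wider than the differences between 0 h and 2 h.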

How the data were processed

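The 40 RNA-seq libraries were prepared with Smart-seq2 and sequenced as paired ends. The authors trimmed reads with Trimmomatic 0.35, used Bowtie 1.2 for mapping to a reference transcriptome and RSEM 1.2.31 for TPM, and the methods add ComBat against batch effects and qsmooth normalization. The deposited values were treated as a signal on the scale of TPM, although the tests had been planned for TPM, because column totals differ and replicates share their sorted values. Counts were not used, and depth is unknown.

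Columns were matched to samples by name. R 4.3.3 and limma 3.58.1 were used on log2(value + 1) with lmFit and eBayes with trend (two-sided, Benjamini-Hochberg over all genes fitted, threshold 0.05), leaving out genes with fewer than 2 values above 0 among the samples compared. The contrasts with 0 h used all 14 regeneration samples, the slope the 10 samples from 4 to 48 h, the body column contrasts 12 samples, and the tissue contrasts 10 samples with each tissue against the mean of the 4 others. The script was tested on simulated data with independent noise in each sample. In these data replicates did not share their sorted values, so the run says nothing about that feature of the deposited values. The tests rest on a spread pooled over all samples of a fit and shared in part between genes, not on the 2 samples of 1 group alone.

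Genes named are, for each direction, the largest change called at 2 h and the largest other change also called in that direction at 48 h. The 2 opsins named are those whose identifiers are in a supplementary table of the study. The members and lists were chosen with earlier results of these data known. No identifier matched the gene table of another assembly, and no sequences or positions were used here. Alternatives were a pseudocount of 0.1, a minimum value of 1, no filter, quantile normalization, scaling by median ratios, a block for the replicate number, a fit of 4 or of 24 samples, log2 of the hours, a 2-fold minimum, and leaving out each sample. Robust empirical Bayes, the rule of at least 2-fold without overlap, the body column contrasts at 6, 12 and 24 h and the counts without genes listed at 0 in both 0 h samples were chosen after seeing the data. Samples were not treated as paired by replicate number, except in the fit with the replicate block. Python 3.11.15 with pandas 2.3.3, numpy 2.4.6 and matplotlib 3.10.9 was used for summaries and plots.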

Additional observations from a re-analysis of the deposited data

How the results depend on the processing

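Of the 35 genes higher and 9 lower at 2 h, the counts lay between 29 and 40 and between 7 and 11 under the other pseudocount, filters and scalings, the replicate block, a 2-fold minimum and robust empirical Bayes, the last chosen after seeing the data. The fit of the 4 samples gave 2 higher and 0 lower, and the rule of at least 2-fold without overlap, which runs no test and was also chosen then, gave 263 and 201. Leaving out 1 sample gave between 15 and 104 higher and between 4 and 146 lower. The cause of these shifts was not tested. In the adjusted values the correlation of replicate deviations between 0 h and 2 h was 0.0543. Batch adjustment and normalization can remove a link between replicates, so this value cannot tell whether replicate numbers paired the samples. With the replicate block 33 genes were higher, 30 of them among the 35, and 7 lower.

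Against 0 h, 46 genes were higher and 10 lower at 4 h, 54 and 8 at 6 h, 1053 and 1792 at 12 h, 426 and 782 at 24 h, and 1519 and 1892 at 48 h. Median-ratio scaling gave 6 lower at 4 h, 4 at 6 h, 1356 higher and 963 lower at 12 h, 510 and 329 at 24 h, and 1834 and 1079 at 48 h. The replicate block gave 6 lower at 4 h, and quantile normalization gave 349 lower at 24 h. Without 1 sample, the genes higher and lower lay between 24 and 41 and between 6 and 15 at 4 h, 15 and 27 and 4 and 8 at 6 h, 448 and 633 and 476 and 853 at 12 h, 75 and 111 and 48 and 78 at 24 h, and 603 and 966 and 476 and 902 at 48 h.

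Over 4 to 48 h, 1243 genes rose and 1637 fell, and between 469 and 1370 and between 685 and 1815 without 1 sample. Against the body column, 2044 genes were higher and 1757 lower at 4 h (between 940 and 2101 and between 802 and 1987 without 1 sample) and 2264 and 2097 at 48 h (between 1288 and 2397 and between 1007 and 2288). Without 1 sample, the genes higher and lower lay between 1297 and 2762 and 1022 and 2216 at 6 h, 961 and 1998 and 1028 and 2614 at 12 h, and 138 and 703 and 122 and 910 at 24 h. Genes higher in a tissue lay between 5058 and 6013 for the tentacles, 1510 and 3289 for the hypostome, 1728 and 2729 for the body column, 1767 and 3095 for the budding zone and 1285 and 1635 for the foot, and genes lower in the body column between 2899 and 4403. The bud slope called 1085 higher and 53 lower. Median-ratio scaling gave 690 higher, quantile normalization gave 1587 lower, and leaving out 1 sample gave between 0 and 1914 higher and between 0 and 196 lower.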

Other observations

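A wider set was described after its values had been seen, namely the genes at least 2-fold higher or lower at 2 h without overlap between samples, to which no test applies. The 263 genes higher by this rule had a median difference from 0 h of 1.40 at 2 h, 0.80 at 4 h, 1.05 at 6 h, 0.97 at 12 h, 0.93 at 24 h and 0.70 at 48 h. The value was thus lower at 4 h than at 2 h, while the 35 genes called by limma had a median of 2.73 at 4 h and 2.48 at 2 h. Of the 263, 63 (24.0%) were higher at 4 h than in the body column by limma, against 11.8% of all genes. Of the 260 that could be fitted in the tissues, 90 (34.6%) were higher in the tentacles, against 34.2% of all genes. The 263 were chosen as lower in column tissue at 0 h than at 2 h, so nothing is read from these counts against those shares. The 201 genes lower by the rule had medians of -1.32 at 2 h, -0.82 at 4 h and -0.41 at 48 h. Of 199 that could be fitted, 64 (32.2%) were higher in the hypostome than in the other tissues, against 17.4% of all genes. In the budding zone 60 (30.2%) were lower and 19 (9.55%) higher, against 18.8% and 17.1% of the genes fitted at 2 h. In the foot 54 (27.1%) were lower and 17 (8.54%) higher, against 15.9% and 8.91%. These 201 genes too were chosen partly by values in column tissue at 0 h, so nothing is read from their counts.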
